A study of Homo sapiens with 14 samples.

Results

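AcIN3 and NAIN3 are reagents that acylate RNA inside living cells, and their reactivity profiles on the human ribosomal RNAs were compared nucleotide by nucleotide. The members were all nucleotides of 18S and 28S rRNA with a score for both reagents, 6867 of the 6939 nucleotides listed. They fall into 1833 of 1869 nucleotides of 18S rRNA (nt 7 to 1839) and 5034 of 5070 nucleotides of 28S rRNA (nt 7 to 5040), and each rRNA was kept apart. The cells were HEK293, a line derived from human embryonic kidney that carries adenovirus 5 DNA. They were exposed for 10 min to 200 mM AcIN3 or to 100 mM NAIN3, with 2 biological replicates per reagent. In the wider series, 14 samples in 7 groups also cover a further acylating reagent, 10% DMSO as the solvent control, and polyadenylated RNA, which were not used here. NAIN3 is NAI-N3, a nicotinic acid imidazolide with an azide, whereas the sample labels give AcIN3 by name only, and no structure is described for it.

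Reagents of this kind transfer an acyl group to the 2′-hydroxyl of the ribose. The reaction favours flexible nucleotides that the reagent can reach, so base-paired or protein-covered nucleotides tend to react little. Reverse transcriptase stops next to the adduct, and the stops are turned into a reactivity per nucleotide. The 18S rRNA is the RNA of the small ribosomal subunit, where codons are read, and the 28S rRNA is the main RNA of the large subunit, where peptide bonds are made. Expansion segments (ES) are stretches that eukaryotic rRNA carries in addition to the conserved core, mostly on the ribosome surface.

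The measure was the R-score, a reactivity from 0 to 1 for each nucleotide, given as the authors' mean over the replicates of a reagent. Each reagent has 1 deposited mean profile, so no difference below could be set against the spread between replicates, and no test was made. Depth in reads is unknown. Because the doses differed, nucleotides were compared by percentile rank within a reagent and rRNA (100 is the most reactive), and scores are given side by side as values at unequal doses. The lengths of the profiles equal those of the RefSeq genes RNA18SN5 (1869 nt, positions 109078 to 110946) and RNA28SN5 (5070 nt, positions 113348 to 118417), both on GRCh38.p14 sequence with no chromosome assigned. Both genes encode mature structural rRNA with no coding region or UTR. No rRNA sequence was used here, so none is printed and no base could be assigned to a position.

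The reactivity of NAIN3 was concentrated on fewer nucleotides than that of AcIN3. In 18S rRNA the most reactive 10% of nucleotides (183) carried 34.9% of the summed R-score of AcIN3 and 59.9% of that of NAIN3. In 28S rRNA the most reactive 10% (503 nucleotides) carried 36.6% for AcIN3 and 53.2% for NAIN3. The less reactive lower 50% of nucleotides held 14.6% of the AcIN3 sum and 6.34% of the NAIN3 sum in 18S, and 15.0% and 6.5% in 28S. The middle 50% of 18S nucleotides scored between 0.049 and 0.246 with AcIN3 and between 0.0075 and 0.057 with NAIN3. In 28S these ranges were 0.046 to 0.207 with AcIN3 and 0.0095 to 0.0975 with NAIN3. The top 10% began at a score of 0.440 with AcIN3 and 0.139 with NAIN3 in 18S, and at 0.369 and 0.240 in 28S. The next score below the limit was 0.439 with AcIN3 and 0.138 with NAIN3 in 18S, and in 28S it equalled the limit for both reagents, where ties were ordered by position.

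AcIN3 and NAIN3 ordered the nucleotides alike in broad terms, with wide scatter at single nucleotides. Spearman's rho across nucleotides was 0.58 in 18S (n = 1833) and 0.56 in 28S (n = 5034). These points come from the same rRNA pool and lie next to each other, and both reagents have the same solvent control, so the correlations are a description only. The median absolute gap between the ranks of a nucleotide was 14.8 points in 18S and 15.5 points in 28S. Ranks lay within 10 points of each other at 673 nucleotides of 18S (36.7%) and 1780 of 28S (35.4%). In 18S AcIN3 ranked more than 50 points above NAIN3 at 98 nucleotides and NAIN3 more than 50 points above AcIN3 at 45. In 28S these numbers were 236 and 151.

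**Figure D1:**
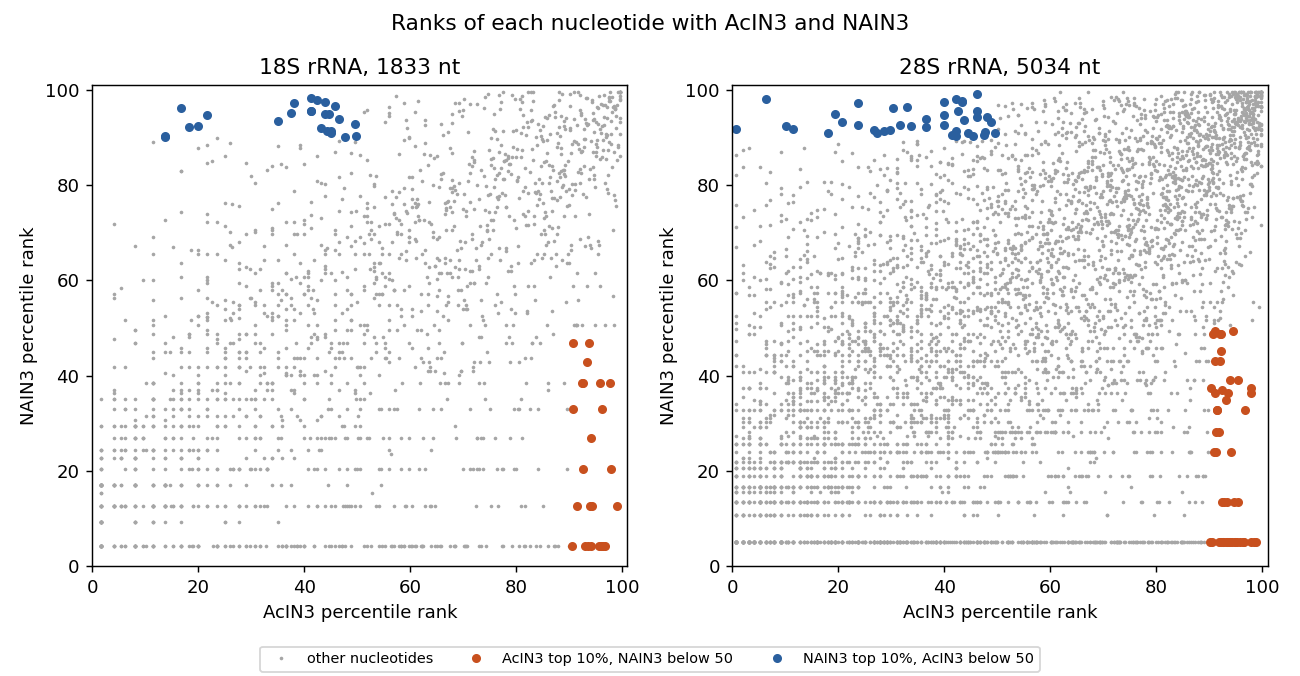
Percentile rank of each nucleotide with AcIN3 (horizontal axis) and NAIN3 (vertical axis) in 18S (1833 nt) and 28S (5034 nt); coloured points belong to the top 10% for 1 reagent but rank below 50 for the other. The points spread around the diagonal (rho 0.58 and 0.56), and the horizontal band at the bottom holds the nucleotides at score 0 with NAIN3.

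The shared part of the most reactive nucleotides depended on how many were taken. Of the 183 top nucleotides of each reagent in 18S, 75 were shared (41.0%, exact Clopper-Pearson 95% interval 33.8 to 48.5%), and of the 503 in 28S, 232 were shared (46.1%, 41.7 to 50.6%). These intervals treat nucleotides as independent and cover no replicate error. Among the top 2% the shared part was 10 of 36 in 18S (27.8%) and 28 of 100 in 28S (28.0%), and among the top 20% it was 202 of 366 (55.2%) and 560 of 1006 (55.7%). At the top 1%, 8 of 18 were shared in 18S (44.4%, 21.5 to 69.2%) and 13 of 50 in 28S (26.0%, 14.6 to 40.3%). Both reagents stood at the maximum of 1 at 7 nucleotides of 18S (nt 103, nt 360, nt 541, nt 554, nt 1247, nt 1248 and nt 1767) and at 10 of 28S (nt 121, nt 1135, nt 1254, nt 1322, nt 1766, nt 2206, nt 3352, nt 3456, nt 3457 and nt 4881). Next in 18S by mean rank were nt 628 (0.982 with AcIN3 and 1 with NAIN3), nt 226 (1 against 0.840) and nt 1451 (1 against 0.665).

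The reagents matched steadily at the reactive end, and at the unreactive end the match was not the same in both directions. When 18S nucleotides were divided into deciles by AcIN3, the median NAIN3 rank was higher in each successive decile, 17.0 in the lowest and 87.5 in the highest. When they were divided by NAIN3, the lowest decile had a median AcIN3 rank of 31.2, above the 13.8 of the second decile, and the highest decile reached 86.3. In 28S the median NAIN3 rank by AcIN3 decile ran between 19.0 and 88.7, while the median AcIN3 rank was 32.7 in the lowest NAIN3 decile, 19.7 in the second and 88.0 in the highest. The lowest NAIN3 decile is made up largely of nucleotides listed at exactly 0.

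**Figure D2:**
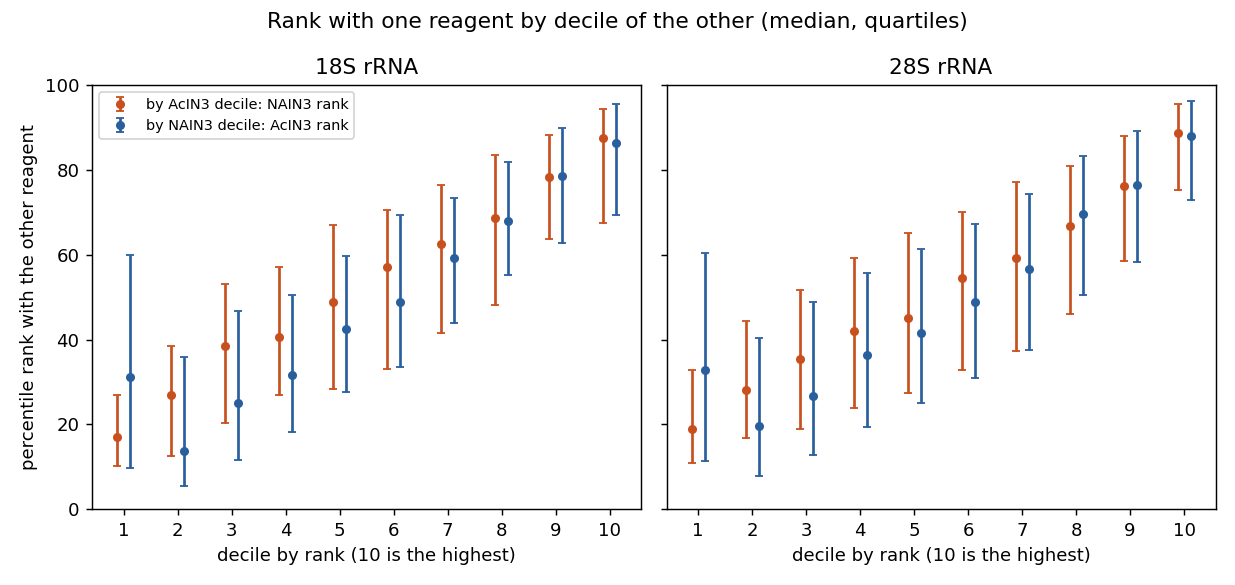
Median percentile rank with one reagent (points, bars from the lower to the upper quartile) in each decile by rank with the other reagent, for 18S and 28S. Nucleotides in the lowest NAIN3 decile had a median AcIN3 rank of 31.2 in 18S and 32.7 in 28S, above that of the second decile (13.8 and 19.7).

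A score of 0 with NAIN3 did not go with the lowest AcIN3 scores. AcIN3 was listed at 0 at 60 nucleotides (3.27%) in 18S and 69 (1.37%) in 28S, and NAIN3 at 159 (8.67%) and 512 (10.2%). Only 14 nucleotides of 18S and 20 of 28S were at 0 with both. At the NAIN3 zeros of 18S the median AcIN3 score was 0.0815 (rank 37.5, quartiles 14.5 to 62.3), 61 of 159 (38.4%) ranked above 50 with AcIN3, and 8 were in its top 10%. At the NAIN3 zeros of 28S the median AcIN3 rank was 32.7 (quartiles 11.45 to 60.4), 171 of 512 (33.4%) ranked above 50, and 21 were in the top 10%. At the AcIN3 zeros, by contrast, NAIN3 ranked above 50 at 0 of 60 nucleotides in 18S and 10 of 69 in 28S, with median ranks of 12.6 and 16.8. A zero can be a low signal or an uncovered position, and which of these holds was not tested because the files hold no depth.

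NAIN3 zeros also ran in stretches. At least 5 consecutive zeros occurred 6 times in 18S and 16 times in 28S with NAIN3, and never with AcIN3, whose longest stretch was 3 nt in each rRNA. The longest NAIN3 stretch in 18S was nt 113 to 125, 13 nt in the first domain, where AcIN3 scored between 0 and 0.209 with a median of 0.109. AcIN3 was highest there at nt 123 and ranked above 50 at 6 of the 13 nucleotides, and it was at 0 at 3 of them, Um121 among them. In 28S the longest were nt 1775 to 1785 (11 nt, AcIN3 median 0.0695), nt 4065 to 4074 (10 nt, AcIN3 median 0.212) and nt 1079 to 1087 (9 nt, AcIN3 median 0.073). In nt 4065 to 4074, which lies in the L1 stalk stretch, AcIN3 ranked above 50 at 9 of 10 nucleotides and peaked at 0.438 at nt 4072.

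Highly reactive NAIN3 nucleotides lay beside one another more often than those of AcIN3, which mostly stood alone. In 18S, 129 of the 183 AcIN3 top nucleotides (70.5%) had no top nucleotide directly beside them, against 84 of 183 for NAIN3 (45.9%). In 28S these were 343 of 503 for AcIN3 (68.2%) and 224 of 503 for NAIN3 (44.5%). Runs of at least 3 consecutive top nucleotides held 20 AcIN3 and 69 NAIN3 nucleotides in 18S (10.9% and 37.7%), and 64 and 163 in 28S (12.7% and 32.4%). The rank of a nucleotide correlated with that of the next nucleotide more weakly for AcIN3 (rho 0.16 in 18S and 0.22 in 28S) than for NAIN3 (0.47 and 0.52). Directly before its own top nucleotides the mean rank was 55.8 with AcIN3 and 75.1 with NAIN3 in 18S, and directly after them it was 58.1 and 72.0. In 28S the means were 59.8 and 77.1 before, and 60.3 and 73.7 after.

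The longest runs of each reagent were named after their values were seen. In 18S the longest AcIN3 run was nt 1151 to 1154 in the platform, with AcIN3 at 0.769, 0.452, 0.524 and 0.521 and NAIN3 at 0.125, 0.011, 0.031 and 0.017. The longest NAIN3 run of 18S was nt 835 to 840 in expansion segment ES6S, where AcIN3 had a median of 0.282 and NAIN3 a median of 0.478, with a NAIN3 score of 1 at nt 836. In 28S the longest AcIN3 run was nt 619 to 626 of expansion segment ES7L, with an AcIN3 median of 0.981 and a NAIN3 median of 0.243, and 4 of its 8 nucleotides were also in the NAIN3 top 10%. The longest NAIN3 run of 28S was nt 892 to 898, also in ES7L, with an AcIN3 median of 0.233 and a NAIN3 median of 0.728, and none of its 7 nucleotides was in the AcIN3 top 10%. Both runs of 28S thus lie in ES7L, which holds 876 of the 5034 scored nucleotides of 28S. Each run was chosen from the top of its own reagent, so nothing is read from which reagent led it.

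**Figure D3:**
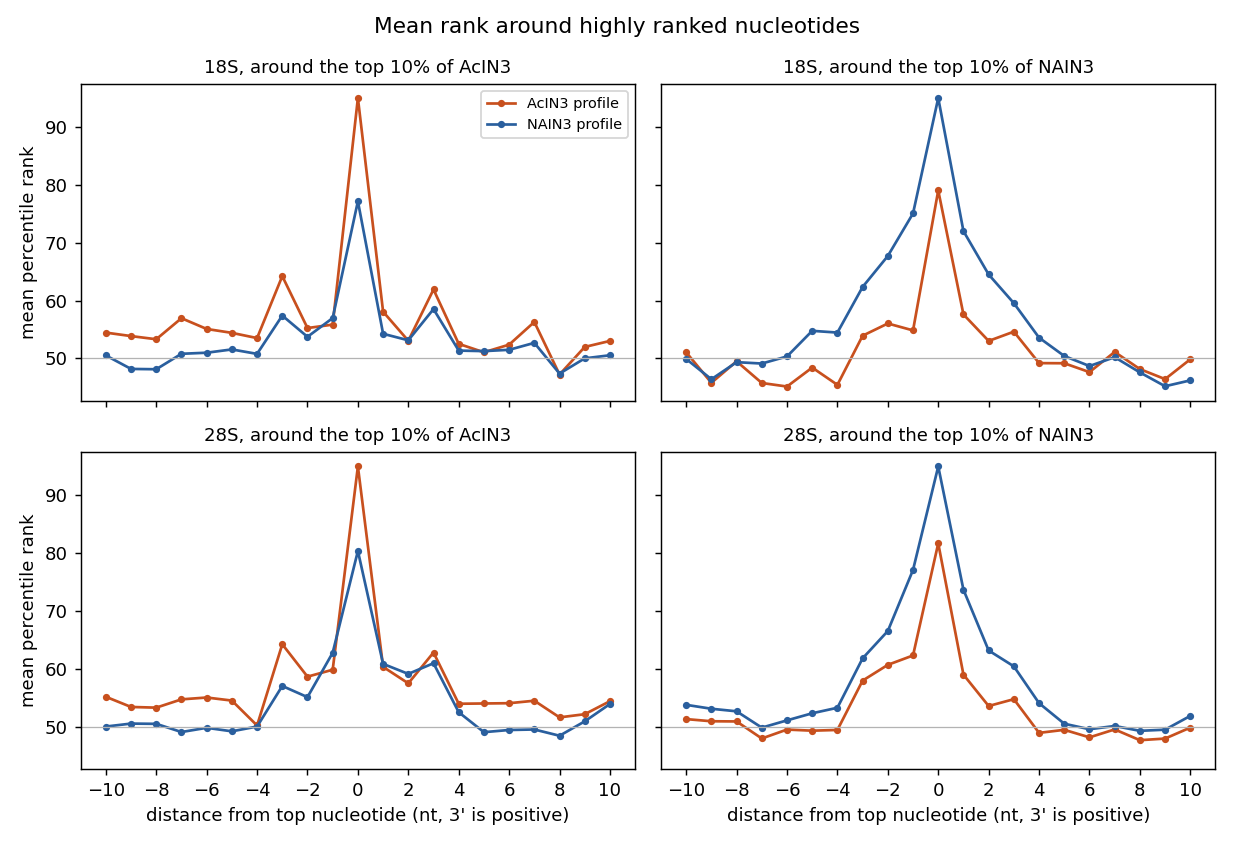
Mean percentile rank of the AcIN3 and NAIN3 profiles from 10 nt before to 10 nt after the top 10% of nucleotides of each reagent, in 18S (upper row) and 28S (lower row); the grey line marks rank 50. The AcIN3 profile drops at the next nucleotide (58.1 in 18S, 60.3 in 28S), and the NAIN3 profile around its own top nucleotides declines over about 4 nt (72.0 and 73.7 at the next nucleotide).

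The profiles matched best without displacement. Against the NAIN3 score 1 nt toward the 5′ end, rho fell to 0.16 in 18S and 0.21 in 28S, and against the NAIN3 score 1 nt toward the 3′ end to 0.044 and 0.16. At NAIN3's top nucleotides the mean AcIN3 rank was 79.0 in 18S and 81.7 in 28S, and at AcIN3's top nucleotides the mean NAIN3 rank was 77.2 and 80.4. In 28S the AcIN3 rank averaged 60.7 at 2 nt before a NAIN3 top nucleotide and 53.6 at 2 nt after it. In 18S these averages were 56.0 and 53.0.

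Agreement between the reagents differed along the small subunit. By regions whose bounds are approximate, rho was 0.41 in the 5′ domain start (nt 7 to 410), 0.56 in the shoulder (nt 411 to 700), 0.44 in ES6S (nt 701 to 910), 0.72 in the platform (nt 911 to 1198), 0.65 in the head (nt 1199 to 1599) and 0.79 in the stretch of the P site and decoding centre (nt 1600 to 1839), which reads the codon. The NAIN3 zeros moved with this order in part. They made up 21.3% of the 5′ domain start and 10.95% of ES6S, against 0.694% of the platform and 2.92% of the decoding stretch, while AcIN3 zeros made up 2.07 to 4.95% of every region. Without the nucleotides at 0, rho was 0.51 in the 5′ domain start, 0.49 in ES6S, 0.70 in the platform and 0.78 in the decoding stretch. The part of the zeros in the remaining difference was not tested.

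In 28S the regions lay closer together. The rank correlation was highest in the peptidyl transferase part of domain V (0.68, nt 4176 to 4576), the site of peptide bond formation, and in the domain I core (0.68, nt 7 to 435), followed by domain III (0.64, nt 2361 to 2876) and the domain II core (0.57, nt 1312 to 2050). It was 0.55 in the domain IV core (nt 3599 to 3896), 0.54 each in ES27L (nt 2877 to 3598), around ES15L (nt 2051 to 2360) and in domain VI (nt 4577 to 5040), 0.52 in ES7L (nt 436 to 1311) and 0.48 in the L1 stalk stretch with ES30L and ES31L (nt 3897 to 4175). NAIN3 was at 0 at 19.0% of the L1 stalk stretch and 16.8% of ES7L, and without nucleotides at 0 their rho was 0.65 and 0.57. The order of neighbouring regions cannot be set against replicate error.

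**Figure D4:**
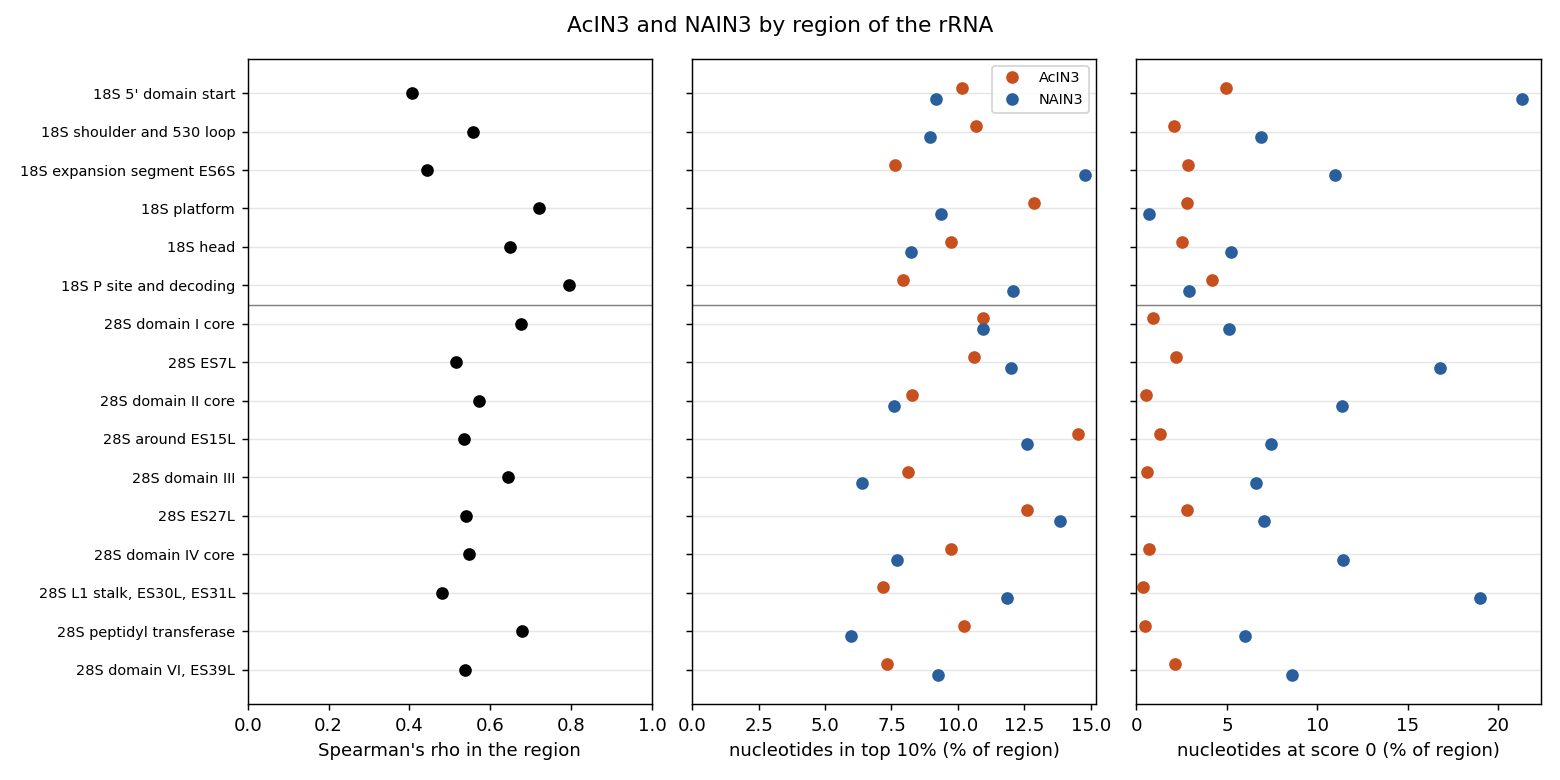
For each region of 18S (upper part) and 28S (lower part), Spearman's rho between AcIN3 and NAIN3 across its nucleotides (left), the percentage of its nucleotides in the top 10% of each reagent (middle) and at score 0 (right). The rank correlation spans 0.41 to 0.79 in 18S and 0.48 to 0.68 in 28S, and NAIN3 zeros reach 21.3% in the 5′ domain start of 18S.

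The share of highly reactive nucleotides also differed by region. In ES6S of 18S, 7.62% of nucleotides were in the top 10% with AcIN3 and 14.8% with NAIN3 (16 and 31 of 210, with 8 shared). In the decoding stretch these were 7.92% and 12.1%, and in the platform 12.8% and 9.38%. In 28S the peptidyl transferase part had 10.2% with AcIN3 and 5.99% with NAIN3 (41 and 24 of 401, with 18 shared). The L1 stalk stretch ran the other way, with 7.17% for AcIN3 and 11.8% for NAIN3. ES27L was dense with both (12.6% and 13.9%), as was the stretch around ES15L (14.5% and 12.6%). The median difference in rank, AcIN3 minus NAIN3, lay between -5.92 in the platform and 2.09 in the shoulder of 18S. In 28S it lay between -6.28 around ES15L and 3.46 in the domain IV core. As a mean over nucleotides it ran between -5.86 in the platform and 5.34 in the 5′ domain start of 18S (median 0.23). The means of 28S ran between -5.23 in ES27L and 7.77 in the L1 stalk stretch (median 3.08).

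A minority of highly reactive nucleotides was opposed, meaning that a nucleotide belonged to the top 10% for 1 reagent but ranked below 50 for the other. With AcIN3 high and NAIN3 low these were 24 nucleotides of 18S (1.31% of all scored, 13.1% of the AcIN3 top) and 51 of 28S (1.01% and 10.1%). With NAIN3 high and AcIN3 low they were 25 of 18S (1.36% and 13.7% of the NAIN3 top) and 40 of 28S (0.795% and 7.95%). Just inside and outside the limit of rank 50, the low reagent ranked 46.8 and 50.6 for the AcIN3-high set of 18S, 49.9 and 51.3 for the NAIN3-high set of 18S, 49.4 and 50.6 for the AcIN3-high set of 28S, and 49.5 and 50.2 for the NAIN3-high set of 28S. In the AcIN3-high set NAIN3 was exactly 0 at 8 of 24 nucleotides in 18S and 21 of 51 in 28S. By definition every AcIN3 top nucleotide at 0 with NAIN3 falls in this set. In the whole AcIN3 top these zeros were 8 of 183 and 21 of 503, against 8.67% and 10.2% of all scored nucleotides. In the NAIN3-high set AcIN3 was exactly 0 at 0 of 25 and 1 of 40.

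Opposed nucleotides of the small subunit were spread unevenly over its regions. The 5′ domain start held 14 of the 24 AcIN3-high nucleotides of 18S (3.47% of its nucleotides, against the 1.31% given above for all of 18S), and the decoding stretch held 0. NAIN3 was at 0 at 21.3% of the 5′ domain start and 2.92% of the decoding stretch, with median NAIN3 ranks of 37.8 and 52.9. The part of this in the placing of the AcIN3-high set was not tested. The NAIN3-high set had 6 in the decoding stretch (2.50%, against 1.36% over 18S), 5 in ES6S (2.38%), 5 in the 5′ domain start (1.24%), 3 in the platform (1.04%), 4 in the head (0.998%) and 2 in the shoulder (0.690%). By share of a region's nucleotides, the AcIN3-high set of 28S was densest around ES15L (6, 1.94%), in ES27L (11, 1.52%) and in ES7L (13, 1.48%), against 1.01% over 28S. The NAIN3-high set of 28S was densest in domain VI (10, 2.16%), around ES15L (4, 1.29%), in ES7L (11, 1.26%) and in ES27L (8, 1.11%), against 0.795% over 28S, and the peptidyl transferase part held 0.

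The 10 widest leads of AcIN3 in 18S were headed by nt 812, nt 172, nt 231, nt 232 and nt 1486, which scored from 0.677 down to 0.542 with AcIN3 and 0 with NAIN3. They went on with nt 140 (0.526 against 0), nt 301 (0.497 against 0), nt 168 (0.965 against 0.003), nt 156 (0.449 against 0) and nt 864 (0.544 against 0.003). Of these 10 nucleotides, 7 lie in the 5′ domain start. That region holds 404 of the 1833 scored nucleotides of 18S and 86 of the 159 NAIN3 zeros of 18S. The 10 of 28S were headed by nt 914, nt 552, nt 3446, nt 2204 and nt 544 (from 0.890 down to 0.581 with AcIN3), followed by nt 4202 (0.565 against 0), nt 4464 (0.533 against 0), nt 548 (0.518 against 0), nt 2217 (0.517 against 0) and nt 4421 (0.491 against 0). NAIN3 was at 0 at all 10 of them. Choice by rank lead favours such nucleotides, because zeros share the lowest NAIN3 rank (5.10). Of the 503 AcIN3 top nucleotides of 28S, 21 were at 0 with NAIN3, so nothing is read from this. Nt 4202, nt 4464 and nt 4421 lie in the peptidyl transferase part of domain V. They were its only AcIN3-high opposed nucleotides (3 of 401, 0.748%, against 1.01% over 28S). That part held 0 of the NAIN3-high set, which made up 0.795% of 28S.

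The 10 widest leads of NAIN3 in 18S were headed by nt 393, nt 1423, nt 689, nt 742 and nt 328, with AcIN3 between 0.0255 and 0.0415 and NAIN3 between 0.139 and 0.341. They went on with nt 744 (0.040 against 0.186), nt 1825 (0.083 against 0.495), nt 200 (0.074 against 0.209), nt 325 (0.0815 against 0.273) and nt 1421 (0.092 against 0.725). The 10 of 28S were headed by nt 2207, nt 4853, nt 4863, nt 894 and nt 2983, with AcIN3 between 0 and 0.036 and NAIN3 between 0.273 and 0.732. After them came nt 265 (0.0435 against 0.586), nt 2169 (0.0345 against 0.254), nt 634 (0.0385 against 0.325), nt 4894 (0.0435 against 0.297) and nt 4852 (0.055 against 0.476). AcIN3 was low but above 0 at all of these 20 nucleotides except nt 4853 of 28S.

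Opposed nucleotides at most 10 nt apart were joined into groups. In 18S, 13 of 24 AcIN3-high and 13 of 25 NAIN3-high nucleotides lay in groups of at least 2, and in 28S 14 of 51 and 11 of 40 did. In the group at nt 140 to 156 of 18S, nt 139 was high with both reagents (0.832 with AcIN3 and 0.384 with NAIN3), nt 140 with AcIN3 alone (0.526 and 0) and nt 142 mainly with NAIN3 (0.300 and 0.661). From nt 147 to nt 152 AcIN3 scored between 0.083 and 0.298 and NAIN3 was at 0 throughout. At nt 168 to 172, AcIN3 scored 0.965, 0.627, 0.141, 0.662 and 0.651 and NAIN3 at most 0.0225. At nt 1148 to 1154 of the platform, nt 1151 scored 0.769 with AcIN3 and 0.125 with NAIN3 (ranks 97.9 and 88.6), and the opposed nt 1148, nt 1152 and nt 1154 scored 0.527, 0.452 and 0.521 with AcIN3 and 0.0195, 0.011 and 0.017 with NAIN3.

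The largest NAIN3-high groups of 18S had 4 members (nt 742 to 746) and 3 members (nt 1419 to 1423), and the one at nt 198 to 200 was the first by position of 3 groups of 2. Nt 1420 was high with both (0.524 with AcIN3 and 0.740 with NAIN3), while its neighbour nt 1421 scored 0.092 with AcIN3 and 0.725 with NAIN3. Nt 199 was high with both (0.505 and 0.698), and nt 198 and nt 200 beside it scored 0.107 and 0.074 with AcIN3 and 0.217 and 0.209 with NAIN3. At nt 742 to 746 of ES6S no nucleotide was in the AcIN3 top 10%, and AcIN3 scored 0.0345, 0.206, 0.040, 0.101 and 0.104 against 0.182, 0.307, 0.186, 0.162 and 0.155 for NAIN3.

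In 28S the group at nt 2201 to 2217, around ES15L, held leads of both reagents. AcIN3 and NAIN3 scored 0.465 and 0 at nt 2201, 0.5995 and 0 at nt 2204, 1 and 1 at nt 2206, 0.0145 and 0.732 at nt 2207, 0.154 and 0.584 at nt 2208, 1 and 0.159 at nt 2211, 0.470 and 0 at nt 2212, 0.886 and 1 at nt 2216, and 0.517 and 0 at nt 2217. At nt 544 to 552 of ES7L the opposed nt 544, nt 548 and nt 552 scored 0.581, 0.518 and 0.816 with AcIN3 and 0 with NAIN3. At nt 3463 to 3473 of ES27L the opposed nt 3463, nt 3464 and nt 3473 scored 0.393, 0.429 and 0.429 with AcIN3 and 0.032, 0.003 and 0.028 with NAIN3. On the NAIN3-high side, nt 4852 and nt 4853 of domain VI scored 0.055 and 0 with AcIN3 and 0.476 and 0.275 with NAIN3, and they follow nt 4851, which was high with AcIN3 (0.466 and 0.199). The remaining nucleotide of this group, nt 4863, scored 0.0215 and 0.293. Of 4 NAIN3-high groups of 2, the first by position lay in ES7L at nt 582 and nt 583 (0.081 and 0.086 with AcIN3, 0.432 and 0.257 with NAIN3) and at nt 634 and nt 640 (0.0385 and 0.0805 with AcIN3, 0.325 and 0.245 with NAIN3).

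**Figure D5:**
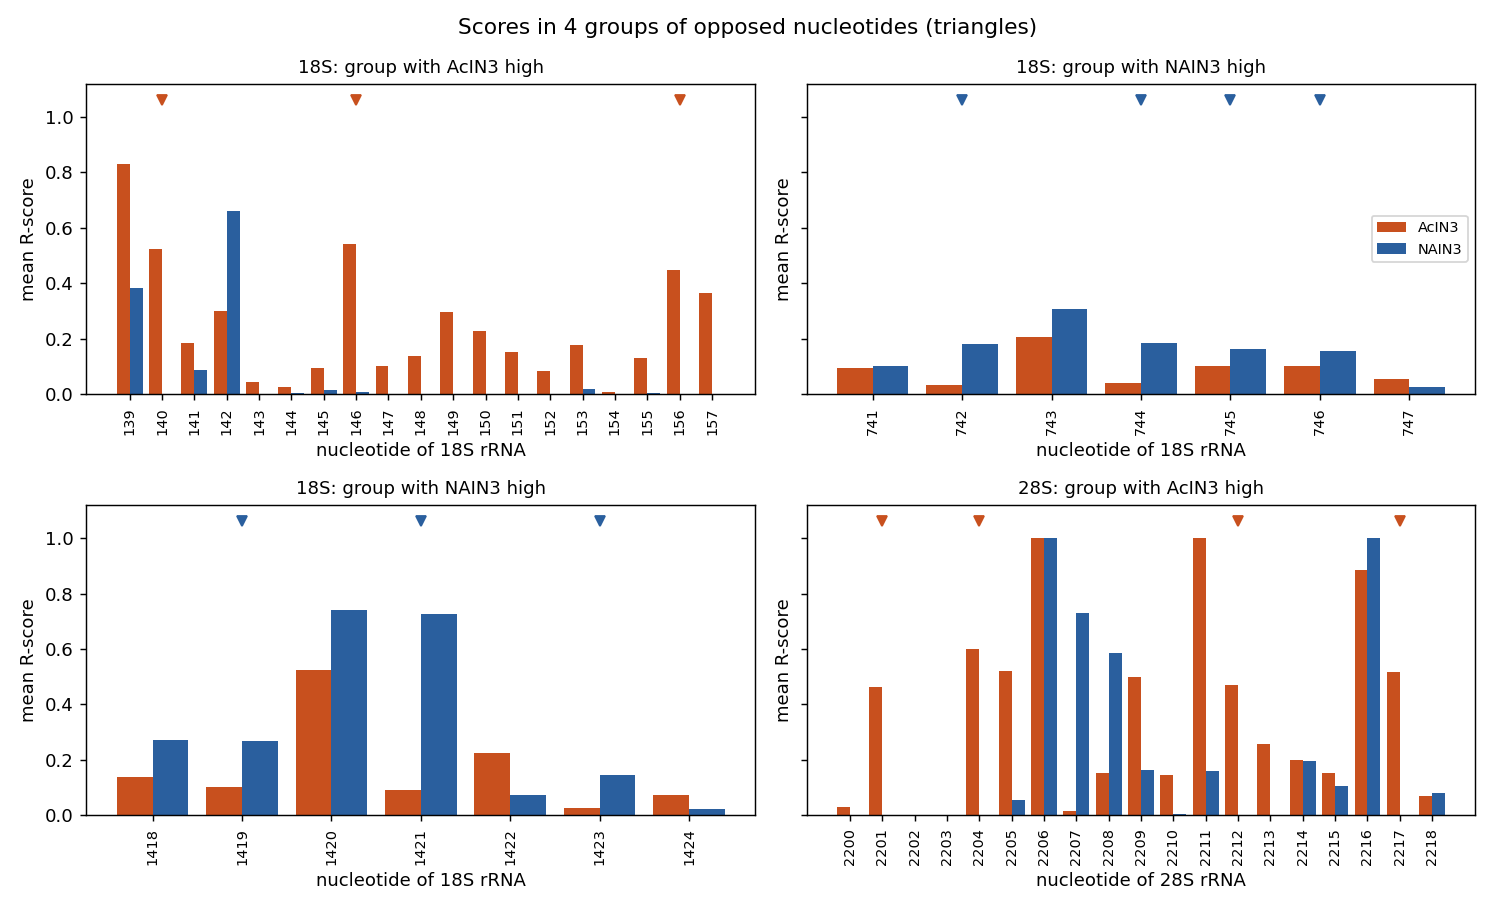
Mean R-score with AcIN3 and NAIN3 at each nucleotide of 4 groups of opposed nucleotides. Triangles in the colour of the high reagent mark the members of each group, and bars start at 0. In the stretch at nt 2201 to 2217 of 28S both reagents scored 1 at nt 2206, and at nt 2207 AcIN3 scored 0.0145 and NAIN3 0.732. Nt 2207 is opposed with NAIN3 high, so it is not a member of this AcIN3-high group and carries no triangle.

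The NAIN3 top nucleotides were also compared by whether a neighbour lay in the AcIN3 top 10%. In 18S this held for 9 of the 25 opposed ones (36.0%), 38 of the other 158 NAIN3 top nucleotides (24.1%) and 18.6% of all scored nucleotides. In 28S it held for 14 of 40 (35.0%), 160 of 463 (34.6%) and 18.2%. In 18S the opposed ones directly followed an AcIN3 top nucleotide at 7 of 25 (28.0%, against 13.9% of the other NAIN3 top nucleotides) and directly preceded one at 3 (12%, against 13.9%). In 28S they followed one at 9 of 40 (22.5%, against 19.7%) and preceded one at 5 (12.5%, against 19.7%), and about 10% of all scored nucleotides do either. AcIN3-high opposed nucleotides were beside a NAIN3 top nucleotide at 1 of 24 in 18S (4.17%) and 5 of 51 in 28S (9.80%), against 16.9% and 17.6% of all scored nucleotides. This set was defined by a low NAIN3 rank, and NAIN3 ranks correlate between neighbours, so nothing is read from these shares.

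If each replicate score lies within 0 to 1, means more than 0.5 apart force both replicates of one reagent above both of the other. AcIN3 was above NAIN3 in this way at 63 nucleotides (3.44%) in 18S and 74 (1.47%) in 28S, and NAIN3 above AcIN3 at 17 (0.927%) and 43 (0.854%). Only means above 0.5 can meet this, which 129 AcIN3 and 50 NAIN3 means did in 18S and 282 and 182 in 28S. As shares of those, AcIN3 led at 48.8% in 18S and 26.2% in 28S, and NAIN3 at 34.0% and 23.6%. By score the widest separations in 18S were at nt 168 (0.965 with AcIN3 and 0.003 with NAIN3), nt 448 (1 against 0.105), nt 1560 (0.929 against 0.059), nt 674 (0.921 against 0.063) and nt 457 (0.956 against 0.0985). The reverse ones were at nt 607 (0.243 against 0.993), nt 773 (0.270 against 1), nt 361 (0.142 against 0.867), nt 75 (0.314 against 1) and nt 74 (0.317 against 1). The adjacent nt 74 and nt 75 were both at the maximum with NAIN3.

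In 28S the widest AcIN3 separations were at nt 2267 (0.963 with AcIN3 and 0.0395 with NAIN3), nt 624 (1 against 0.0825), nt 914 (0.890 against 0), nt 2211 (1 against 0.159) and nt 2224 (1 against 0.159). Those of NAIN3 were at nt 2660 (0.0895 against 0.975), nt 897 (0.141 against 1), nt 2984 (0.161 against 1), nt 3020 (0.199 against 1) and nt 4757 (0.277 against 1). Of the nucleotides named here as most separated by score, only nt 168 of 18S and nt 914 and nt 2660 of 28S were also opposed by rank. At nt 2211 of 28S, for example, the NAIN3 score of 0.159 ranked at 83.9. As shares of a region's nucleotides, the forced separations with AcIN3 higher were densest in the shoulder (14, 4.83%), the 5′ domain start (17, 4.21%) and the platform (12, 4.17%) of 18S, against 3.44% over 18S. By rank, AcIN3-high opposed nucleotides made up 0.690%, 3.47% and 1.04% of these regions, against 1.31% over 18S. In 28S they were densest around ES15L (11, 3.55%), in ES7L (19, 2.17%) and in the domain IV core (6, 2.01%), against 1.47% over 28S. With NAIN3 higher they were densest in domain VI of 28S (9, 1.94%, against 0.854% over 28S). The peptidyl transferase part had 5 with AcIN3 higher (1.25%, against 1.47% over 28S) and 0 with NAIN3 higher.

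NAIN3 ranked above AcIN3 at 5 of 6 listed functional nucleotides of 18S and 4 of 6 of 28S, where it did so at 54.6% and 52.4% of all scored nucleotides. The lists hold 6 nucleotides each, and nothing is read from these counts. Positions were listed from general knowledge of the mature human rRNAs and could not be checked against a sequence. In the decoding centre, nt 1825 scored 0.083 with AcIN3 and 0.495 with NAIN3 (ranks 38.1 and 97.3), nt 1824 scored 0.111 and 0.139 (47.7 and 90.1), and nt 626 scored 0.181 and 0.195 (65.9 and 92.9). The nucleotides on either side, nt 1823 and nt 1826, scored 0.330 and 0.293 with AcIN3 and 0.0495 and 0.077 with NAIN3. By rank, AcIN3 led at nt 1823 (83.4 and 71.8), and the reagents were nearly equal at nt 1826 (80.1 and 80.9). Around the P site, nt 1639 ranked 81.3 with AcIN3 and 92.1 with NAIN3, nt 1701 ranked 51.9 and 73.4, and nt 1248 was at 1 with both.

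In the peptidyl transferase centre, nt 4397 ranked 47.4 with AcIN3 and 76.9 with NAIN3, nt 4452 ranked 1.91 and 32.8, and nt 4548 ranked 45.3 and 83.4. Nt 4531 was high with both (97.4 and 95.8) and lies directly beside nt 4530, a listed base-methylated uridine that was also high with both. In the A loop, which binds the end of the incoming tRNA, nt 4498 ranked 17.2 and 35.5 and nt 4499 ranked 82.6 and 71.8. Both A loop positions are also listed as ribose-methylated (Um4498 and Gm4499), with no free 2′-hydroxyl, so their scores are not read as acylation there. Opposed with NAIN3 high were 2 of 6 in 18S (1.36% of all 18S nucleotides were) and 0 of 6 in 28S.

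Among naturally modified bases, those known to block reverse transcriptase were high with both reagents. Nt 1248 of 18S, a hypermodified pseudouridine, and nt 1322 of 28S, a base-methylated adenosine, scored 1 with both, and nt 4530 of 28S, a base-methylated uridine, scored 0.924 with AcIN3 and 0.541 with NAIN3. Nt 1639 of 18S, a base-methylated guanosine, was in the NAIN3 top 10% but not that of AcIN3 (0.305 and 0.177), and the other listed base modifications were in neither. Nt 1337 of 18S, an acetylated cytidine, scored 0.141 with AcIN3 and 0.0535 with NAIN3, and nt 1832, a base-methylated adenosine, scored 0.009 and 0.005. In 28S nt 3782 scored 0.150 and 0.024, nt 4220 scored 0.161 and 0.030, and nt 4447 scored 0 and 0.012. Neither reagent can add an acyl group at a 2′-hydroxyl that is methylated, so ribose-methylated nucleotides are a further check on what a score holds.

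As a set, listed ribose-methylated nucleotides ranked close to the middle of all scored nucleotides (rank 50), with a lower set median for NAIN3 than for AcIN3. The 41 listed in 18S had median ranks of 49.5 with AcIN3 and 45.0 with NAIN3, and the 58 listed in 28S had 51.1 and 43.2. Taken singly, most of those in 18S went the other way. NAIN3 ranked above AcIN3 at 27 of 41 in 18S (54.6% over all scored) and at 23 of 58 in 28S (52.4%). In the top 10% were 2 of 41 with AcIN3 and 4 of 41 with NAIN3 in 18S, with 0 shared, and 2 and 1 of 58 in 28S. Those high with AcIN3 in 18S, Um172 (0.651 with AcIN3 and 0 with NAIN3) and Am668 (0.492 and 0.014), were both opposed, 2 of 41 where 1.31% of all nucleotides were. Those high with NAIN3 were Gm509 (0.341 and 0.195), Am512 (0.270 and 0.165), Cm517 (0.250 and 0.171) and Gm867 (0.383 and 0.231), each of which ranked between 75.6 and 87.3 with AcIN3. In 28S, 0 of 58 were opposed with AcIN3 high, where 1.01% of all nucleotides were. There Gm4623 was high with both (0.515 and 0.342) and Gm4228 with AcIN3 (0.477 and 0.176). These positions were not checked against a sequence, so a shift in numbering could contribute to their ranks, which was not tested.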

How the data were processed

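Reverse transcription stops after acylation were measured on ribosomal RNA of HEK293 cells. The values are the authors' R-scores, a score per nucleotide averaged by the authors over 2 replicates, as deposited and per the file headers. Per the submitters' processing notes, Bowtie2 and GRCh38 were used, and no version is given. For the score's formula, the role of DMSO and any depth filter, the entry is the same: not given in the sources used here. Every score is a multiple of 0.0005. Nucleotides tied at 0 or at 1 have no order among themselves, and averaging removes the replicate spread.

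Percentile ranks (ties averaged) were taken within reagent and rRNA. The top is the highest 10% by score with ties ordered by position, low is below rank 50, and groups join opposed nucleotides at most 10 nt apart. Intervals are Clopper-Pearson at 95%. No test was made. The column of a further reagent (1 per file) was left aside. Nucleotides were named by rule: per rRNA and direction the 10 widest rank differences within the top, the 5 widest forced separations and the 3 largest groups of opposed nucleotides (ties by position), the 10 highest mean ranks per rRNA, all regions, all base-modified and functional nucleotides, and ribose-methylated ones in either top. The members, lists and limits were chosen with earlier results of these data known. The code was checked on simulated data. Alternatives were other limits for top and low, trimmed ends, nucleotides at 0 or 1 left out, 5-nt means, Pearson's r, displacement by 1 nt and scaled scores. Software was scipy 1.17.1, pandas 2.3.3, numpy 2.4.6 and matplotlib 3.10.9 under Python 3.11.15.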

Additional observations from a re-analysis of the deposited data

How the results depend on the processing

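No paired analysis was possible because the files hold a mean per reagent and no replicate values, and for the same reason no replicate could be left out. Depth is unknown and limits what a score of 0 can show. Spearman's rho of 0.58 in 18S became 0.48 as Pearson's r, 0.47 over 5-nt means, 0.63 without the 5′ domain start (chosen after seeing the data), and 0.044 and 0.16 with NAIN3 moved by 1 nt toward the 5′ and the 3′ end. In 28S only the moves by 1 nt changed it by more than 0.05, to 0.16 and 0.21. The shared part of the top became 55.2% in 18S and 55.7% in 28S at the top 20%, and 39.4% in 28S at the top 5%. With low set below rank 25, the opposed part of the top was 7.65% (AcIN3 high) and 3.28% (NAIN3 high) in 18S and 5.77% and 1.79% in 28S, by construction fewer. At the top 5% of 28S it was 4.78% and 4.38%, and at the top 20% it was 14.8% and 12.9%. A gap of 0.5 between scaled scores, whatever the lower rank, gave 56.3% and 49.2% in 18S and 48.7% and 45.9% in 28S. The median rank difference of a region changed sign in 5 of 32 alternatives, all in regions within 4 points of 0. It moved by more than 5 points in 1 of 32, the 5′ domain start of 18S, with 0.23 as a median and 5.34 as a mean. The cause of the shifts in rho and at the other top limits was not tested.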

Other observations

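The AcIN3 profile carried a raised correlation at a distance of 3 nt in both rRNAs. In 18S the rank of a nucleotide correlated with that of nucleotides 1, 2, 3 and 4 nt away at rho 0.16, 0.11, 0.24 and 0.024 for AcIN3, so it was higher at 3 nt than at 1 nt. For NAIN3 these were 0.47, 0.31, 0.30 and 0.18. In 28S they were 0.22, 0.18, 0.27 and 0.065 for AcIN3 and 0.52, 0.32, 0.28 and 0.15 for NAIN3. Around the AcIN3 top nucleotides of 18S the mean AcIN3 rank was 64.2 at 3 nt before and 61.9 at 3 nt after, against 55.2 and 53.0 at 2 nt and 53.5 and 52.5 at 4 nt. The NAIN3 profile showed the same shape around the AcIN3 top nucleotides of 18S, with 57.4 and 58.5 at 3 nt against 53.7 and 53.1 at 2 nt. The source of this distance was not tested.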
